A study of Mus musculus with 6 samples.

Results

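Interferon-stimulated genes were described in mouse back skin that had been left untreated or exposed to a bacterial protease and house dust mite extract. The set held 42 genes, chosen by name from a list with earlier results of these data known. They were matched to the gene symbol of the deposited table, and all 42 had a row among its 17564 genes. The mice were wild-type C57BL/6, 8 weeks old, and their backs were shaved and depilated in both groups. In the treated group (3 samples) the skin was in addition exposed to 3 µg SspA, a secreted Staphylococcus aureus protease known as V8, together with 10 µg of house dust mite (HDM) extract. Both were applied again on day 3, and the skin was taken on day 7. The untreated group (3 samples) received neither, and the labels give no collection day for it. The untreated libraries are named U1, U2 and U3 and the treated ones T1, T2 and T3, by replicate number. The comparison asked which interferon-stimulated genes differ between the treated and the untreated skin.

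Whole skin was sequenced in bulk, so more cells of a type and more RNA per cell cannot be told apart. Reads per library ran from 4928245 in U2 to 7545567 in T3, and a member was covered by at least 307 reads over the 6 libraries. The tissue label was checked against its markers: 8 of 8 keratinocyte genes, among them Krt5 and Krt10, were read in every library, and their summed level was 17573 to 18533 scaled reads in untreated and 15106 to 18059 in treated skin. A scaled read is a read after all libraries were brought to about the same total. Krt5, Krt14, Krt1 and Krt10 had 0.788 to 0.845 mean reads per base of transcript, where no gene in any library exceeded 0.923. Whether their sum follows the amount of RNA at that density was not tested.

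Interferons are secreted proteins that cells release when they sense viral or bacterial nucleic acid or when lymphocytes are activated. Type I interferons (alpha, beta and relatives) signal through the receptor chains Ifnar1 and Ifnar2 to a complex that contains Irf9 and binds the interferon-stimulated response element. Interferon gamma signals through Ifngr1 and Ifngr2 to factors that bind the gamma-activated site. In skin, keratinocytes, fibroblasts and immune cells all respond. Of the products, the Ifit, Oas and Mx families act against viral RNA and virus particles, the Gbp and Irg families are GTPases that attack the vacuoles of intracellular microbes, and Psmb8, Psmb9 and Tap1 prepare peptides for class I presentation.

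Both binding motifs were looked for in the RefSeq promoter windows of build GRCm38.p6 (the patched form of mm10), which span 250 bases before and 50 after each start. A window placed on the start of the deposited transcript was found for 33 of the 42 members. Oas2, Mx1, Mx2, Iigp1, Dhx58, Zbp1, Usp18, Parp14 and Rtp4 had no window on that start and were not searched. The response element core, read as GAAA, any 2 bases and GAAA on either strand, was in 16 of the 33 member windows and in 3.44% of all 32851 windows. The gamma-activated site core, TTCNNNGAA, which reads the same on both strands, was in 9 of the 33 and in 8.3% of all windows, and 5 member windows held both. In Bst2 the 2 kinds of match overlap. A match is a description of the letters and shows no binding.

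The following stretches of 60 bases come from members that rose in treated skin, with the response element core in capitals. Each is written 5′ to 3′ along the gene's own strand and lies wholly before the start.
Ifit1, chr19:34640769-34640828, plus strand: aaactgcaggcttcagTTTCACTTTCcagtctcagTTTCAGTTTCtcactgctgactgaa
Isg15, chr4:156200857-156200916, minus strand: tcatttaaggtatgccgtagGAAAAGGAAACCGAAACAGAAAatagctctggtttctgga
Rsad2, chr12:26456533-26456592, minus strand: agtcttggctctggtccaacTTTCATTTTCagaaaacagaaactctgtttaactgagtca
Oas3, chr5:120777695-120777754, minus strand: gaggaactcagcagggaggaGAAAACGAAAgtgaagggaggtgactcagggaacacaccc
Cxcl10, chr5:92349065-92349124, minus strand: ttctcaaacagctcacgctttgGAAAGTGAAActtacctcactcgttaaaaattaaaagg
Bst2, chr8:71537568-71537627, minus strand: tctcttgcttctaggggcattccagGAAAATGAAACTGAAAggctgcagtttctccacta
Isg15 carries 3 overlapping cores in a row, starting 78, 72 and 66 bases before the start (offsets -78, -72 and -66), and Ifit1 carries a pair at offsets -104 and -85.

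For comparison, these stretches come from GTPase members, which were not called in treated skin and which carry the same core close to the start.
Gbp2, chr3:142620583-142620642, plus strand: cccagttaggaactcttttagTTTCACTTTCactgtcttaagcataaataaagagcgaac
Gbp3, chr3:142559974-142560033, plus strand: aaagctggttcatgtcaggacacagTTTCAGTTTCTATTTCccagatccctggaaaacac
Irgm1, chr11:48871421-48871480, minus strand: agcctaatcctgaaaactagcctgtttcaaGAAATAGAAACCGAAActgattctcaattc
Igtp, chr11:58199496-58199555, plus strand: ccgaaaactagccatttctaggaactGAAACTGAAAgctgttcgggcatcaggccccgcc
The last pair shows the gamma-activated site core in capitals, in the immunoproteasome gene Psmb8 and in the transcription factor gene Irf1, neither of which was called.
Psmb8, chr17:34198075-34198134, plus strand: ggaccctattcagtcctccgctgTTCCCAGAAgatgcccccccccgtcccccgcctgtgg
Irf1, chr11:53769899-53769958, plus strand: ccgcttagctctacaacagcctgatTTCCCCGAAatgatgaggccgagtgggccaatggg

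By role, the response element core was in 6 of 6 GTPase windows, 4 of 7 windows of the Ifit, Oas and Mx families and 0 of 3 antigen processing windows. Of the 16 members with the core, 7 rose in treated skin, and of the 17 members without it in the window, 6 rose. Of all 15534 tested genes 9.26% rose (limma, adjusted p under 0.05).

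**Figure D1:**
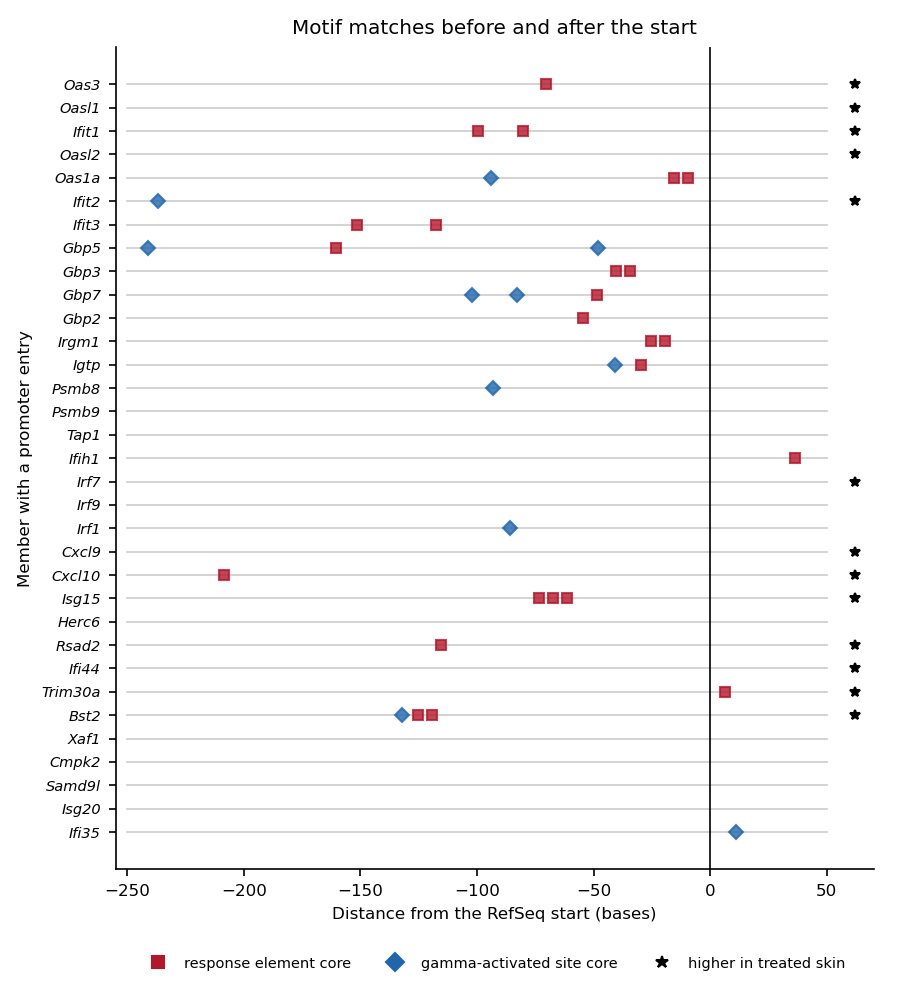
Position of each motif match in bases from the RefSeq start (x axis) for the 33 members with a promoter window (y axis, by role); squares mark the response element core, diamonds the gamma-activated site core and stars the members that rose in treated skin. All 6 GTPase windows hold the response element core, and the 3 antigen processing windows hold none.

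In treated skin, 16 of the 42 members rose and none fell, where 9.26% of the 15534 tested genes rose and 7.23% fell (limma, adjusted p under 0.05). The count at an unadjusted p under 0.05 was also 0 for members with a negative fold change, and DESeq2 and edgeR called none lower. DESeq2 called 16 members higher (8.03% of tested genes) and edgeR 15 (8.04%). All 42 members had passed the filter on low values. The median log2 fold change was 0.46 over the members and 0.03 over all tested genes, and 38 of 42 members had a positive value, as did 54.9% of tested genes. The changes were modest: Oas3 had the largest, a 3.29-fold rise, and 5 of the 16 rose at least 2-fold. The treated values lay above all untreated values for 26 members, 10 of which were not called, and such a gap was seen for 21.7% of tested genes. Of the 16, the 7 genes Ifit1, Oas3, Oasl1, Oasl2, Rsad2, Dhx58 and Irf7 were called without each of the 6 libraries in turn, and the other 9 were lost without at least 1 of them. Without U1 or without T2 the members called fell to 7, and without U2 to 10. No member passed a test against a 1.5-fold change.

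**Figure D2:**
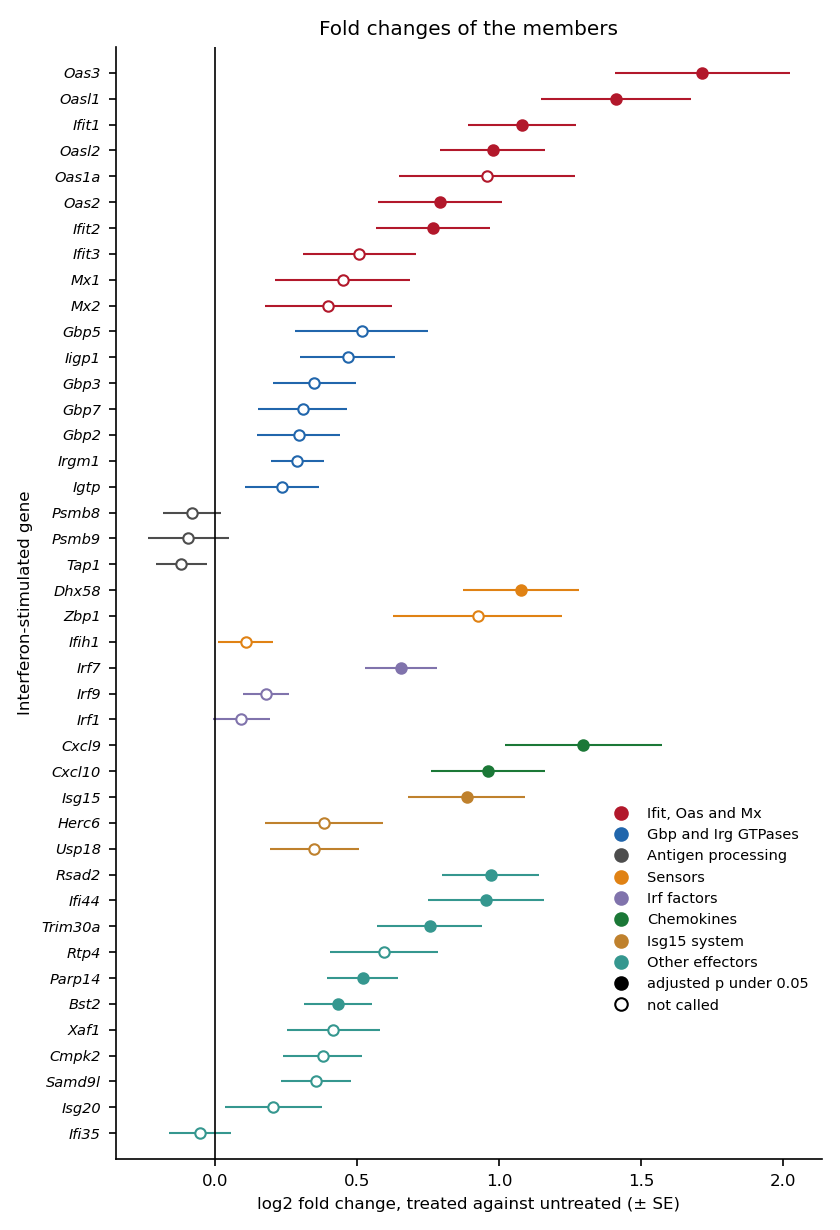
Log2 fold change of each member, treated against untreated, with its standard error (x axis) for 42 genes grouped by role (y axis, colours); filled points had an adjusted p under 0.05 by limma. The values run from -0.12 for Tap1 to 1.72 for Oas3, and the GTPase points lie between 0.24 and 0.52 with none filled.

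The Ifit, Oas and Mx families are antiviral proteins, and 6 of their 10 members rose, where 9.26% of all tested genes rose. The median log2 fold change of the 10 was 0.88. Oas3, one of the enzymes that make the oligoadenylate signal for RNase L, had 33, 29.6 and 50 scaled reads in the 3 untreated libraries and 119, 182 and 84.9 in the 3 treated ones, in replicate order as in all such lists. The groups did not overlap, and T2 was the highest library. The log2 fold change of Oas3 was 1.72 ± 0.31 (SE, adjusted p = 0.0092). Oasl1, an Oas-like protein without that enzyme activity, had 24.2, 28.3 and 34.1 scaled reads in untreated and 78, 103 and 58 in treated skin, again highest in T2 and without overlap. Its log2 fold change was 1.41 ± 0.26 (SE, adjusted p = 0.0107). Oasl2, another Oas-like gene, had 171, 192 and 248 scaled reads in untreated and 388, 502 and 321 in treated skin, with no overlap. Its means were 204 ± 39.5 and 404 ± 91.6 (SD, n = 3), and it rose by 0.98 ± 0.19 on the log2 scale (adjusted p = 0.0112).

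Ifit1, which binds viral RNA that lacks the host's cap methylation, had 89, 144 and 137 scaled reads in untreated and 273, 267 and 232 in treated skin. Every treated library was above every untreated one, and U1 stood lowest. The log2 fold change of Ifit1 was 1.08 ± 0.19 (SE, adjusted p = 0.0086). Ifit1 lies on chromosome 19 at 34640889 to 34650009 of mm10, and its relative Ifit2 at 34550694 to 34576534. Ifit2 had 144, 187 and 182 scaled reads in untreated and 217, 380 and 293 in treated skin, without overlap. It rose by 0.77 on the log2 scale (adjusted p = 0.033, and 0.0554 to 0.11 without U1, U2, U3, T2 or T3). Ifit2 was also not called with limma-voom (0.0574), without a trend in the spread (0.0767), in 4 libraries of like depth (0.0539) or with the trend along reads per base removed (0.0633). Oas2, a further oligoadenylate synthetase, had 201, 185 and 255 scaled reads in untreated and 310, 530 and 301 in treated skin, again without overlap. It rose by 0.79 on the log2 scale (adjusted p = 0.0397, and 0.0557 to 0.123 without U1, U2, T1 or T2). Oas2 was not called by edgeR (0.051), limma-voom (0.0811), limma without a trend (0.0937) or with the trend along reads per base removed (0.0732).

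The other 4 genes of these families were not called. Oas1a, the best-known enzyme of its family, had a log2 fold change of 0.96 ± 0.31 (SE, adjusted p = 0.0663, 0.035 without U3), and its groups did not overlap, with U2 at 30.9 and U3 at 71.6 scaled reads. Ifit3, a partner of Ifit1, had 0.51 (adjusted p = 0.115, 0.0332 in the 4 libraries of like depth U1, U3, T1 and T2). Mx1 had 0.45 (adjusted p = 0.235, 0.0376 without T1) and Mx2 0.40 (adjusted p = 0.261), and the groups of both overlapped. Mx1 and Mx2 belong to a family of dynamin-like GTPases, and C57BL/6 mice are known to carry a defective Mx1. The deposited Mx2 transcript is a non-coding RefSeq record. Ifit, Oas and Mx genes have close relatives, so reads that fit more than one of them are uncertain.

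**Figure D3:**
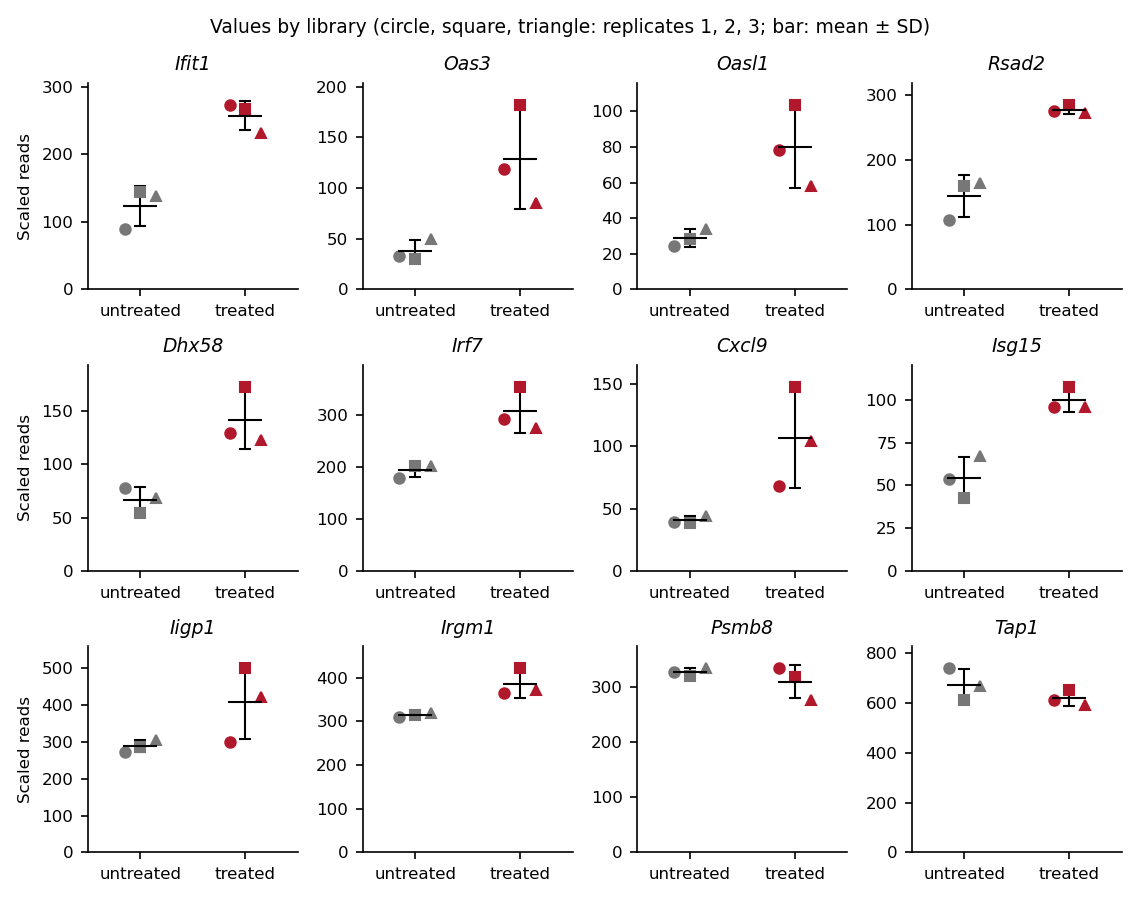
Scaled reads (y axis, from 0) of 12 members in the 3 untreated and 3 treated libraries (x axis), with the mean and SD as a bar. The first 8 genes, from Ifit1 to Isg15, have every treated point above every untreated one, whereas T1 lies among the untreated points for Iigp1 and the groups of Psmb8 and Tap1 overlap.

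Among the other effectors, 5 of 11 rose, where 9.26% of all tested genes rose. Rsad2, which encodes viperin, an enzyme that makes a chain-terminating nucleotide against viral polymerases, had 107, 160 and 165 scaled reads in untreated and 276, 284 and 271 in treated skin. The 3 treated libraries were nearly level, and U1 was again the lowest. Its log2 fold change was 0.97 ± 0.17 (SE, adjusted p = 0.0086). Cmpk2, the gene next to Rsad2 on chromosome 12 (26469215 to 26479837 beside 26442743 to 26456452), encodes a kinase that supplies nucleotides for that reaction, and had a smaller log2 fold change of 0.38 (adjusted p = 0.0971) without overlap of the groups.

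Ifi44 had 44, 45 and 51.1 scaled reads in untreated and 73.5, 107 and 96.6 in treated skin. It rose by 0.95 on the log2 scale (adjusted p = 0.0165), and was not called without U1 (0.0605) or T2 (0.0733). Trim30a, a negative regulator of Toll-like receptor signalling, had 226, 242 and 304 scaled reads in untreated and 414, 567 and 344 in treated skin. Trim30a rose by 0.76 (adjusted p = 0.0266, and 0.0635 to 0.0904 without U1, U2, T1 or T2, 0.0533 with limma-voom, 0.0708 without a trend and 0.0504 with the trend along reads per base removed). Parp14, a mono-ADP-ribosyltransferase, had 594, 530 and 640 scaled reads in untreated and 720, 1002 and 824 in treated skin. The groups of these 3 genes did not overlap, and T2 was the highest library for each. Parp14 rose by 0.52 on the log2 scale (adjusted p = 0.0252, and 0.0712 to 0.0797 without U1, U2 or T2, 0.0728 without a trend and 0.057 in the 4 libraries of like depth). Bst2, or tetherin, which holds budding virus at the cell surface, had 145, 136 and 153 scaled reads in untreated and 204, 195 and 189 in treated skin. The Bst2 groups did not overlap, and its log2 fold change of 0.43 had adjusted p = 0.0392. That call was lost when any 1 of the 6 libraries was left out (0.0534 to 0.121), with DESeq2 (0.14), with limma-voom (0.0512) and in the 4 libraries of like depth (0.0803). Rtp4 (0.59, adjusted p = 0.064, 0.0191 without T3), Xaf1 (0.42, adjusted p = 0.117), Samd9l (0.35, adjusted p = 0.0844, 0.0343 without U3), Isg20 (0.21, adjusted p = 0.452) and Ifi35 (-0.05, adjusted p = 0.779) were not called.

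Isg15, a ubiquitin-like protein that is attached to other proteins after interferon, had 53.8, 42.5 and 67 scaled reads in untreated and 96.1, 108 and 95.8 in treated skin, so the groups did not overlap. The log2 fold change of Isg15 was 0.89 ± 0.21 (SE, adjusted p = 0.0225, and 0.0567 to 0.0861 without U1, U2, T1 or T2). The genes of its machinery were not called: Usp18, the protease that removes Isg15 and damps receptor signalling, had 0.35 (adjusted p = 0.164), and Herc6, the mouse ligase for Isg15, had 0.38 (adjusted p = 0.244).

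Where 9.26% of all tested genes rose, 1 of the 3 sensor genes did, namely Dhx58. It encodes LGP2, which tunes the RNA sensors RIG-I and MDA5, and had 78, 54 and 68.2 scaled reads in untreated and 130, 173 and 123 in treated skin. The Dhx58 groups did not overlap, and its log2 fold change was 1.08 ± 0.20 (SE, adjusted p = 0.011). Zbp1, a sensor of Z-form nucleic acid, had a log2 fold change of 0.92 ± 0.30 (SE, adjusted p = 0.0654), was called with DESeq2 (adjusted p = 0.0302) and without T3 (0.0464), and ran from 50.2 in U2 to 208 in T2. Ifih1, the MDA5 gene itself, had 0.11 (adjusted p = 0.491), with overlapping groups.

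The 3 interferon regulatory factors differed in size of change. Irf7, the factor that amplifies type I interferon production, had 179, 201 and 201 scaled reads in untreated and 292, 354 and 274 in treated skin and rose by 0.65 ± 0.13 on the log2 scale (SE, adjusted p = 0.0117). Irf9, the DNA-binding part of the type I complex, had 465, 470 and 436 scaled reads against 496, 545 and 512, a log2 fold change of 0.18 (adjusted p = 0.165) without overlap. Irf1, an early target of interferon gamma, had 368, 408 and 357 against 374, 445 and 389 with overlap, and 0.09 (adjusted p = 0.585). Whether these 3 changes differ from each other was not tested.

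Both chemokine genes rose, where 9.26% of all tested genes rose. Cxcl9 and Cxcl10 encode ligands that draw activated T cells through the receptor Cxcr3. Cxcl9 had 39.6, 38.6 and 44.3 scaled reads in untreated and 67.9, 148 and 104 in treated skin, a log2 fold change of 1.30 ± 0.28 (SE, adjusted p = 0.0164, 0.056 without U1 and 0.057 without T2). Cxcl10 had 40.7, 39.9 and 56.8 in untreated and 88.2, 90.4 and 88.2 in treated skin, a log2 fold change of 0.96 ± 0.20 (SE, adjusted p = 0.0154, 0.0596 without U1 and 0.0602 without T2). The treated libraries were thus nearly equal for Cxcl10 and spread more than 2-fold for Cxcl9.

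None of the 7 GTPase members was called by limma, where 16.5% of all tested genes were called in either direction. DESeq2, edgeR and limma-voom called none of the 7 either. Their median log2 fold change was 0.31, with 7 of 7 values positive, and 3 of them had an unadjusted p under 0.05. Iigp1, which coats the vacuole of Toxoplasma, had 274, 287 and 306 scaled reads in untreated and 301, 500 and 422 in treated skin, so T1 lay within the untreated range. Iigp1 had a log2 fold change of 0.47 ± 0.17 (SE, adjusted p = 0.093). Gbp5, which takes part in inflammasome assembly, had 91.2, 111 and 120 scaled reads against 116, 219 and 140, and the highest log2 fold change of the group at 0.52 ± 0.23 (SE, adjusted p = 0.17). Igtp had 216, 197 and 194 against 214, 279 and 228, and the lowest log2 fold change at 0.24 ± 0.13 (SE, adjusted p = 0.253).

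T1 was the lowest treated library for all 7 GTPase members, and for 34% of all tested genes. Without T1, Iigp1 (adjusted p = 0.0194) and Gbp7 (adjusted p = 0.0453) were called. Irgm1, a regulator of the other Irg proteins, was the only GTPase member beside Gbp2 whose treated values all lay above the untreated ones, at 309, 315 and 319 against 364, 421 and 371 scaled reads, with a log2 fold change of 0.29 ± 0.09 (SE, adjusted p = 0.0656). Gbp2 had 0.29 (adjusted p = 0.212) and Gbp3 0.35 (adjusted p = 0.136). Gbp2, Gbp3, Gbp5 and Gbp7 lie in 1 cluster on chromosome 3, between 142496934 and 142638008, and share similar stretches, so reads may be split among them.

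The 3 antigen processing members were not called by limma, DESeq2, edgeR or limma-voom, and none had an unadjusted p under 0.05. Of all tested genes, limma called 16.5% in either direction. Psmb8 and Psmb9 encode subunits of the immunoproteasome, and Tap1 encodes a chain of the transporter that carries peptides into the endoplasmic reticulum. The 3 lie side by side on chromosome 17, from 34182099 to 34201454. Psmb8 had 327, 320 and 334 scaled reads in untreated and 335, 318 and 277 in treated skin, a log2 fold change of -0.08 ± 0.10 (SE, adjusted p = 0.63). Psmb9 had 182, 157 and 166 against 176, 163 and 135 scaled reads and a log2 fold change of -0.09 ± 0.14 (SE, adjusted p = 0.705, and 0.01 without T3), and Tap1 had -0.12 ± 0.09 (SE, adjusted p = 0.408), with 740, 612 and 668 against 611, 653 and 592 scaled reads.

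These 3 genes were densely covered, at 0.241, 0.188 and 0.203 mean reads per base of transcript for Psmb8, Psmb9 and Tap1. T3, the deepest library, was the lowest treated one for 3 of 3. It was also the lowest for 61.3% of the 4965 tested genes above 0.15 mean reads per base, against 35.3% of all tested genes. With each library's trend along reads per base removed, the log2 fold changes of Psmb8, Psmb9 and Tap1 were -0.03, -0.08 and -0.09. The part of depth in these values was otherwise not tested.

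Set side by side, the median change from the untreated mean was 0.73, 1.23 and 0.73 in T1, T2 and T3 for the Ifit, Oas and Mx families, 0.08, 0.63 and 0.32 for the GTPases, and 0.03, -0.04 and -0.24 for antigen processing (log2 scale). The order of the 3 groups was the same in each treated library. In untreated libraries the medians were -0.19, -0.04 and 0.22 for the antiviral families and stayed within 0.12 of 0 for the other groups. Since the groups were chosen by function and have few genes, the difference between them was not tested.

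The groups also differed in their level before treatment. Per kilobase of transcript, the untreated level had a median of 39.5 scaled reads in the antiviral families (8 for Oas3 to 67.9 for Ifit3), 92.6 in the GTPases (35.7 for Gbp5 to 137 for Irgm1) and 229 in antigen processing (211 for Psmb9 to 269 for Psmb8). The antigen processing levels did not overlap those of either other group. In treated skin the medians per kilobase were 63.6, 119 and 211, in the same order. Over the 42 members, the untreated level per kilobase and the log2 fold change had a Spearman correlation of -0.71, and over all tested genes -0.35. These are descriptions across genes of the same 6 libraries, and the untreated value enters both axes.

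**Figure D4:**
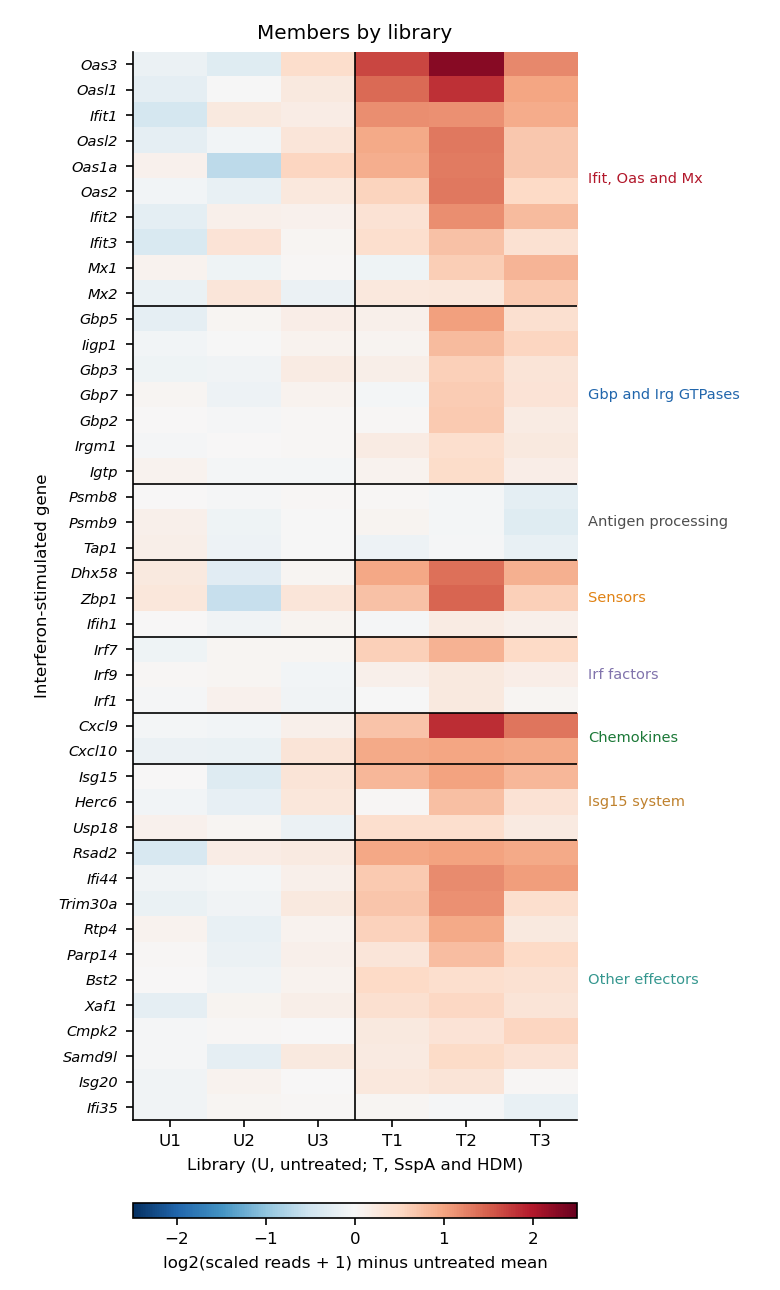
Heat map of 42 members (rows, by role) in the 6 libraries (columns); colour gives log2(scaled reads + 1) minus the untreated mean of the gene. The treated columns are reddest in T2, which was the highest treated library for 34 members, and the antigen processing rows stay near 0 apart from a lower T3.

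The treated libraries were not alike in the size of the response. T2 was the highest treated library for 34 of 42 members, and for 21.5% of all tested genes. The lowest was T3 for 22 members and T1 for 20, and T2 for none, where the shares of all tested genes were 35.3%, 34% and 30.7%. Among untreated libraries, U3 was the highest for 26 members and for 37.5% of all tested genes. U1 or U2 was the lowest for 18 and 20 members, near the 35.7% and 40.5% of all tested genes. Bst2, Ifit1, Psmb8, Psmb9 and Ifi35 were highest in T1, and Mx1, Mx2 and Cmpk2 in T3.

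Markers of several cell types moved with treatment, in both directions, where 9.26% of all tested genes rose and 7.23% fell. Keratinocyte markers fell for 1 of 8, Lor (-0.54, adjusted p = 0.0113), which was called in 19 of 22 alternatives. Of these 8 genes 7 had negative fold changes and none rose. Neutrophil markers rose for 9 of 9 tested genes of 11, with Ly6g at 0 in the untreated group, and their sum was 399 to 586 scaled reads in untreated and 4407, 3214 and 1398 in T1, T2 and T3. Monocyte and macrophage markers rose for 4 of 10, with none at 0 in a group, and summed to 3766 to 5021 in untreated and 6050, 7425 and 5498 in T1, T2 and T3. T and natural killer cell markers rose for 4 of 9 tested genes of 11, and their sum was 328 to 418 in untreated and 524, 712 and 591 in treated skin. Those that rose were Cd4, Cd8a, Gzmb and Gzma, and Cd4 made up most of the difference in the sum, with a mean of 45.5 scaled reads in untreated and 217 in treated skin. Of the other tested genes of that list 4 had negative fold changes, and Cd3e (-0.49, adjusted p = 0.103) and Cd3g (-0.22, adjusted p = 0.404) had all treated values below the untreated ones. Cd3d (0.92, adjusted p = 0.0747) was not called either and had all treated values above the untreated ones. Dendritic cell markers fell for 2 of 8, the Langerhans cell gene Cd207 (-1.39, adjusted p = 0.0044) and Cd209a (-0.71, adjusted p = 0.0273), with a sum of 722 to 1036 in untreated and 551 to 682 in treated skin. Of 4 genes common to immune cells none was called by limma, edgeR or limma-voom and 1 by DESeq2, and 3 had an unadjusted p under 0.05. For markers of plasmacytoid dendritic cells, potent producers of type I interferon, 1 of 5 tested genes of 7 rose, namely Ccr9, with a sum of 1549 to 1725 in untreated and 1737 to 1908 in treated skin. Tcf4 made up most of that sum, with a mean of 1144 scaled reads in untreated and 1330 in treated skin. Of the 5 tested genes 4 had positive fold changes. Cox6a2 had a negative one (-0.43, adjusted p = 0.0735), with all treated values below the untreated ones. The defining gene of these cells, Siglech, had a log2 fold change of 0.17 (adjusted p = 0.719). Per kilobase of transcript, untreated skin had a mean of 14.9 scaled reads for Siglech, 154 for Tcf4 and 437 for Cox6a2. Whether the Tcf4 and Cox6a2 reads come from plasmacytoid cells was not tested. The endothelial sum was 3415 to 3908 in untreated and 4224 to 5154 in treated skin (1 of 5 rose, Vwf), and the fibroblast sum 11952 to 14493 and 13599 to 17307 (0 of 6 called by limma, DESeq2, edgeR or limma-voom, and 0 at an unadjusted p under 0.05). The fibroblast, endothelial, macrophage, lymphocyte, plasmacytoid and common immune sums were highest in T2, as most members were. Of the 5 tested plasmacytoid genes, however, 3 were highest in T3 among treated libraries, 1 (Tcf4) in T2 and 1 (Cox6a2) in T1. The neutrophil and keratinocyte sums were highest in T1 among treated libraries and the dendritic sum in T3. T1 was also the highest treated library for 61.3% of the 4965 tested genes above 0.15 mean reads per base. The part of these cell types in the members' change was not tested.

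Of the 21 interferon genes looked for, Ifng had a row and the others were not analysed here. Ifng, the product of T and natural killer cells, had 0, 0 and 1 reads in untreated and 0, 5 and 6 in treated libraries, 1 read against 11, which gives a ratio of 9.44 with a 95% exact interval of 1.37 to 406 for counting error alone. Ifng did not pass the filter on low values and was not tested. In T1, 0 of 5606959 reads allows up to 3.39 scaled reads of Ifng.

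Of the 6 receptor chains, 3 rose, where 9.26% of all tested genes rose. Ifnar1 and Ifnar2, the pair for type I interferons, had log2 fold changes of 0.38 ± 0.08 (SE, adjusted p = 0.0169) and 0.45 ± 0.10 (SE, adjusted p = 0.0196), and Il10rb, which the lambda interferon receptor shares with the IL-10 receptor, had 0.43 ± 0.10 (SE, adjusted p = 0.0233). Ifnar1 was not called without U1 (0.0611), U2 (0.0513), T2 (0.074) or a trend in the spread (0.0551), Ifnar2 without U2 (0.0589), T1 (0.0574) or T2 (0.0844), and Il10rb without U2 (0.0575), T1 (0.0624), T2 (0.0853) or a trend (0.0516). The interferon gamma receptor genes Ifngr1 (-0.01, adjusted p = 0.95) and Ifngr2 (0.04, adjusted p = 0.826) and the lambda receptor gene Ifnlr1 (-0.24, adjusted p = 0.321) were not called.

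Of the 13 sensors and adaptors that lead to interferon production, 2 rose, or 15.4%, where 9.26% of all tested genes rose. The 2 were Tlr7, the endosomal sensor of single-stranded RNA (1.26, adjusted p = 0.0245, and 0.079 to 0.0838 without U1, U2 or T2, 0.0669 without a trend and 0.0583 in the 4 libraries of like depth), and Ddx58, the RIG-I gene (0.50, adjusted p = 0.041, and 0.0525 to 0.144 without U1, U2, T1, T2 or T3). Ddx58 was not called by edgeR (0.056), limma-voom (0.0601), limma without a trend (0.0934), after TMM scaling (0.0524), with the replicate number as a block (0.0542), in the 4 libraries of like depth (0.0592) or with the trend along reads per base removed (0.063). No feedback gene was called by limma, DESeq2, edgeR or limma-voom, and 1 of the 6 had an unadjusted p under 0.05. Socs1, which blocks the Janus kinases, had 0.05 (adjusted p = 0.885).

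Of 46 tested interferon-induced genes outside the 42, 15 rose (32.6%, against 9.26% of all tested genes), with a median log2 fold change of 0.36. Slfn1, a Schlafen gene of immune cells, rose the most at 2.65 ± 0.35 (SE, adjusted p = 0.0034), followed by p-value by Adar, the double-stranded RNA editing enzyme (0.52, adjusted p = 0.0053), Slfn2 (0.97, adjusted p = 0.0088) and Trim25, a ubiquitin ligase that acts on RIG-I (0.36, adjusted p = 0.0101). These 4 genes were called without each library in turn. Of 12 tested GTPase genes outside the set, 2 rose (16.7%, against 9.26% of all tested genes), with a median of 0.35: Gbp9 (0.53, adjusted p = 0.0241, and 0.0583 to 0.0868 without U1, U2 or T2, 0.0645 without a trend) and Gbp8 (1.27, adjusted p = 0.0447, and 0.0796 to 0.156 without U1, U2, T2 or T3). Gbp8 was also not called by edgeR (0.0538), limma-voom (0.059), limma without a trend (0.0779), in the 4 libraries of like depth (0.141) or with the trend along reads per base removed (0.0577).

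Of 17 tested class I genes outside the set, none rose by limma, DESeq2 or edgeR and 2 fell by limma, with a median of -0.11. Over all tested genes 9.26% rose and 7.23% fell by limma. The 2 that fell were the nonclassical class I genes H2-Q7 (-0.71 ± 0.12 SE, adjusted p = 0.0065) and H2-Q6 (-0.67 ± 0.13 SE, adjusted p = 0.012, 0.0518 without U1), which are near-identical, so their reads are uncertain. B2m, the light chain of class I molecules, had -0.16 (adjusted p = 0.354) at 0.742 mean reads per base, where no gene in any library exceeded 0.923. Of 8 tested further genes of the interferon gamma response, 2 rose: Cxcr3, the receptor for Cxcl9 and Cxcl10 (1.35, adjusted p = 0.0147, 0.0652 without T2), and the adhesion molecule gene Icam1 (0.30, adjusted p = 0.0443, and 0.0753 to 0.164 without U1, U2, U3, T1 or T2). Icam1 was not called by DESeq2 (0.185), edgeR (0.0798), limma-voom (0.0888), limma without a trend (0.0799), after TMM (0.0756) or upper quartile scaling (0.0516), with the replicate number as a block (0.0754), or in the 4 libraries of like depth (0.0517).

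**Figure D5:**
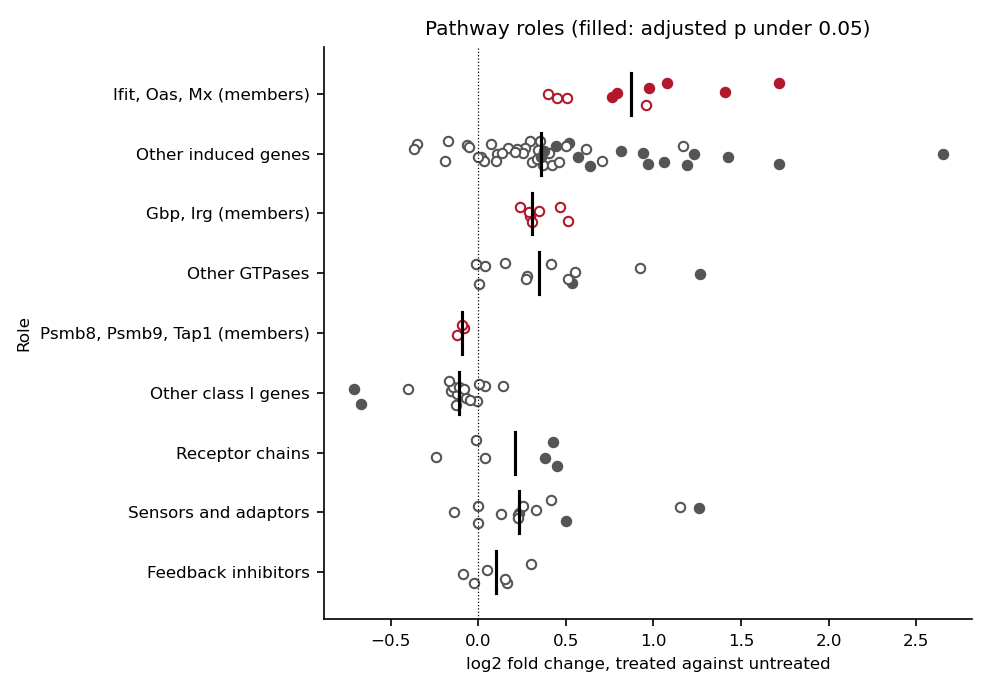
Log2 fold change (x axis) of each tested gene by role in the interferon pathway (y axis), members in red and other pathway genes in grey; filled points passed adjusted p under 0.05 and bars mark medians. The antiviral families have a median of 0.88, the GTPases in the set and outside it near 0.3, and the class I genes in the set and outside it just below 0.

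The authors' deposited table calls 16 of the 42 members higher and none lower, where it calls 7.26% of 17564 genes higher and 7.56% lower. It shares 15 of the 16 members called here. Zbp1 (authors' deposited adjusted p = 0.0298) is called there alone, and Bst2 (authors' deposited adjusted p = 0.151) is called here alone.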

How the data were processed

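RNA from whole skin of 6 samples, 3 a group, was made into stranded mRNA libraries, per the labels' protocols. The submitters' processing notes name bcl2fastq 2.20.0.422, STAR and DESeq2 with build mm10. Which program counted reads is not given in the sources used here. No label says that replicates came from different mice. The p-values therefore measure only how these samples spread, and that spread may be technical.

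The authors deposited a scaled signal per gene and library, their log2 fold changes and their p-values, per the file headers. Divided by the library's smallest step, 100% of the values came within 0.1 of an integer, so whole reads were recovered. Intervals cover counting error only, and 3 reads set the limit for a count of 0.

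As planned for scaled values, limma 3.58.1 (R 4.3.3) was run with a trend in the spread and no covariate on log2(value + 1). This scale understates the change of low genes. Genes passed filterByExpr of edgeR 4.0.16 on the recovered reads (minimum count 10, minimum total 15), and p-values were adjusted over 15534 genes by Benjamini-Hochberg. DESeq2 1.42.0, edgeR and limma-voom on the recovered reads, other scalings, pseudocounts, filters, thresholds and sample sets served as alternatives. On simulated data with 200 changed genes among 15534, limma recovered 89.7% of 3-fold, 72.7% of 2-fold and 24.2% of 1.5-fold changes and called 11 of 15334 unchanged genes.

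The members and lists were chosen with earlier results of these data known. Named were all members, up to 4 genes of each pathway list by smallest p, and fixed pathway genes. 1 of the fixed genes, and the list that holds it, are not reported here. Figures used matplotlib 3.10.9.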

Additional observations from a re-analysis of the deposited data

How the results depend on the processing

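No alternative called a member lower. The members called numbered 16, and 12 to 16 under the other tests, scalings, pseudocounts, filters, 4 libraries of like depth and removal of the trend along reads per base. They numbered 3 at adjusted p under 0.01 and 0 against a 1.5-fold change, where the 6 antiviral calls became 2 and 0. With 1 library left out the members called ran from 7 to 16, the antiviral calls from 4 to 6 and the GTPase calls from 0 to 2, the latter without T1. The 24 pathway genes called higher became 9 without a trend in the spread, 3 at 0.01, 1 against a 1.5-fold change and 4 (without T2) to 25 with 1 library left out. The 2 called lower became 4 with DESeq2 and in the authors' deposited table, 1 at 0.01, 0 against a 1.5-fold change, and 1 to 2 with 1 library left out. Over all genes, 1439 higher and 1123 lower calls became 922 and 640 without a trend, 362 and 288 at 0.01, 137 and 57 against a 1.5-fold change, and 597 to 1389 and 518 to 1333 with 1 library left out. Psmb9 changed sign without T3: its log2 fold change ran from -0.176 to 0.014 with 1 library left out. Fewer samples or a stricter threshold are part of these alternatives, and other causes were not tested. With 1 more base (C) in the response element core, 13 of 33 member windows and 0.819% of all windows held it, in place of 16 and 3.44%. In the 250 bases before the start alone the core was in 14 of 33 and 2.98%. Same-numbered samples of the 2 groups had correlations of -0.085, -0.055 and 0.054 between their deviations. The other pairs ran from -0.098 to 0.146. Whether the numbers pair the samples was not tested. With the replicate number as a block, 15 members were called (Bst2, adjusted p = 0.0807, was not), Ddx58 and Icam1 lost and Ifi203 gained a call, and over all genes 1348 higher and 1096 lower. At these depths and with 3 samples a group, simulated 1.5-fold changes were recovered in 24.2% of cases when 15334 of 15534 genes were unchanged. In the data limma called 16.5% of tested genes, and recovery with such a share of changed genes was not tested.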

Other observations

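Values of 2 further interferon-induced gene families, Ifitm and the HIN genes, are given here. These genes were chosen after their values were seen. Ifitm1, which encodes a membrane protein that hinders virus entry, had 84.6, 79.8 and 90.9 scaled reads in untreated and 289, 255 and 109 in treated skin, a log2 fold change of 1.23 ± 0.32 (SE, limma, adjusted p = 0.0328). T3 lay near the untreated libraries, and Ifitm1 was not called without U1, U2, U3, T1 or T2 (0.0622 to 0.114), with limma-voom (0.113) or without a trend (0.0796). Its relatives Ifitm2 (-0.06, adjusted p = 0.775) and Ifitm3 (-0.17, adjusted p = 0.402) were not called. Ifi209, of the family of DNA-binding HIN proteins, had 91.2, 61.8 and 98.9 scaled reads in untreated and 153, 260 and 170 in treated skin, a log2 fold change of 1.19 ± 0.25 (SE, adjusted p = 0.0147, 0.0501 without T2). Its relative Ifi203 (0.50, adjusted p = 0.0767) was not called by limma, but was called by DESeq2 (0.0442), with the replicate number as a block (0.0324), without U3 (0.0478) or T1 (0.0359) and in the authors' deposited table (0.0468). Ifi204 (0.37, adjusted p = 0.14), Ifi211 (0.31, adjusted p = 0.367) and Ifi205 (0.02, adjusted p = 0.967) were not called. Whether the relatives differ from each other was not tested, and reads shared between them are uncertain.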
